A study of Mus musculus with 5 samples.

Results

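Centromere and kinetochore genes were examined in 6DT1 mouse mammary carcinoma cells in which *Arid4b* had been knocked down. The 34 genes were listed by the known function of their products and ordered by subcomplex. Of these, 33 were measured among the 19938 genes on the arrays, and *Hjurp*, which encodes the chaperone that deposits CENP-A, was left out because its probe set carries several gene symbols. RNA from 5 lines was hybridized to Affymetrix Mouse Gene 1.0 ST arrays, with 1 array per line, and values are log2 expression normalized by RMA. The *Arid4b* knockdown lines were H3 and H4 (n = 2 lines), which carried lentiviral *Arid4b* hairpins in the pLKO.1 vector, had been selected with 10 µg/ml puromycin and had ARID4B protein levels of 0.19 and 0.15 by densitometry relative to the scrambled control. The control lines (n = 3 lines) were H5, an *Arid4b* hairpin line selected in the same way whose ARID4B level was 1.02, the puromycin-selected line with a scrambled hairpin, set at 1.00, and untransduced cells without selection, at 1.09. Each selected line was a pool of clones, and the arrays compare lines of a single carcinoma cell line, so that p-values measure only the spread between these lines.

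The centromere is marked by nucleosomes that contain the histone variant CENP-A. A set of CENP proteins, the constitutive centromere-associated network, sits on this chromatin through the cell cycle and connects it to the outer kinetochore, where the NDC80 complex grips spindle microtubules. The MIS12 complex links the inner and outer layers, the RZZ complex (ROD, ZWILCH and ZW10) builds the fibrous corona of unattached kinetochores, and the SKA complex stabilizes attachment as microtubules shorten. Many of these genes are transcribed most strongly in G2 and mitosis, under the control of E2F factors, B-MYB and FOXM1 with the MuvB complex, and NF-Y.

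*Arid4b* itself, in log2 expression, was at 6.88 (H3) and 7.35 (H4) against 8.24 (H5), 8.34 (scrambled) and 8.36 (untransduced), low in both knockdown lines. Its log2 fold change was -1.20 (SE 0.15). The H3 array had a median of 6.35 over all probe sets and an SD of 2.25, against medians of 6.24 to 6.25 and SDs of 2.29 to 2.30 on the remaining arrays, so that the H3 array stood apart by a narrower spread. Of the epithelial markers, the keratins *Krt8* and *Krt18* lay between 11.57 and 12.26 on every array, whereas *Epcam*, *Cdh1* and *Esrp1* lay between 5.12 and 6.16, below the array medians. The mesenchymal marker *Vim* lay between 12.54 and 12.67, and *Zeb1*, *Zeb2* and *Twist1* between 7.85 and 9.46. *Cdh2* lay between 4.45 and 4.8, below the array medians. *Fn1* was at 7.75 in H3 and 9.2 in H4, against 8.63 to 8.9 in the control lines. None of 21 epithelial, mesenchymal, endothelial and fibroblast markers passed limma's unadjusted threshold of 0.05. Among 5 leukocyte markers *Cd68* was higher, at 10.96 in each knockdown line against 9.93 to 10.07 in the control lines, and *Csf1r* was higher by 0.20, while *Adgre1*, *Cd3e* and *Ptprc* did not pass. *Ptprc*, the pan-leukocyte marker CD45, lay between 4.98 and 5.15. The summed log2 level of the 5 leukocyte markers was 32.83 in H3 and 32.09 in H4, against 31.16 to 31.34 in the control lines. The endothelial and fibroblast sum was likewise higher, at 34.34 and 33.68 against 32.89 to 33.47. All 5 leukocyte markers lay above the control lines in H3. In H4 only *Cd68* and *Csf1r* did, *Cd3e* lay within the control range, and *Ptprc* (4.98) and *Adgre1* (4.53) lay below it. The epithelial sum was 76.05 in H3 and 73.41 in H4 against 74.46 to 75.24, and the mesenchymal sum 50.48 and 52.15 against 51.79 to 51.91. The part of these markers in the results below was not tested.

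Every subcomplex of the centromere and kinetochore held transcripts that were lower in the *Arid4b* knockdown lines, but not every gene was. Among the 33 measured genes 25 were lower by limma (unadjusted p under 0.05), 8 did not pass and none was higher. Over all genes 7.61% were lower and 4.34% higher at this threshold. Both knockdown lines lay below all 3 control lines in 29 of the 33 genes, against 13.5% of all genes. The median log2 fold change of the 33 genes was -0.85, which is 55.3% of the control level, while the median of all genes was 0.03. After Benjamini-Hochberg adjustment over all 19938 genes no gene passed, the adjusted p of the 33 genes running from 0.194 to 0.718. In a bulk culture, fewer cells in mitosis and less transcript per cell cannot be told apart.

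The counts depended on the scale and on the lines used. Among all genes past the unadjusted threshold 36.3% were higher, and this share was 20% with array medians subtracted and 49.4% after a second quantile normalization. Under these scalings 29 and 26 of the 33 kinetochore genes were lower, with none higher, against 10.2% and 6.68% of all genes lower. Leaving out H5 gave 18 lower genes, the scrambled control 27 and the untransduced cells 17, against 3.89%, 8.0% and 5.07% of all genes. The median of the 33 genes was -1.11 without H3 and -0.54 without H4, where 1 knockdown line remains. Without H4 the balance over all genes turned, with 71.2% of the genes past the threshold higher, while 1 of the 33 genes was higher, *Cenpb*. Without H3 or H4 the remaining knockdown line is assumed to vary like the control lines. A core of 14 genes was lower under each of the 12 alternative settings, namely *Cenpa*, *Cenpe*, *Cenpf*, *Cenph*, *Cenpi*, *Cenpl*, *Cenpp*, *Cenpq*, *Cenpu*, *Ndc80*, *Zwilch*, *Ska2*, *Ska3* and *Oip5*. The share of all genes that were lower under every setting was not counted, and the settings are not independent of each other. *Cenpi* and *Cenpq* are among the most reduced genes that the study listed from these same arrays. The study also reported *Cenpa*, a hub gene of the TPX2 gene network, as lower on them. Without *Cenpi* and *Cenpq* the median of the other 31 genes, *Cenpa* included, was -0.77, and 23 of them were lower.

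**Figure D1:**
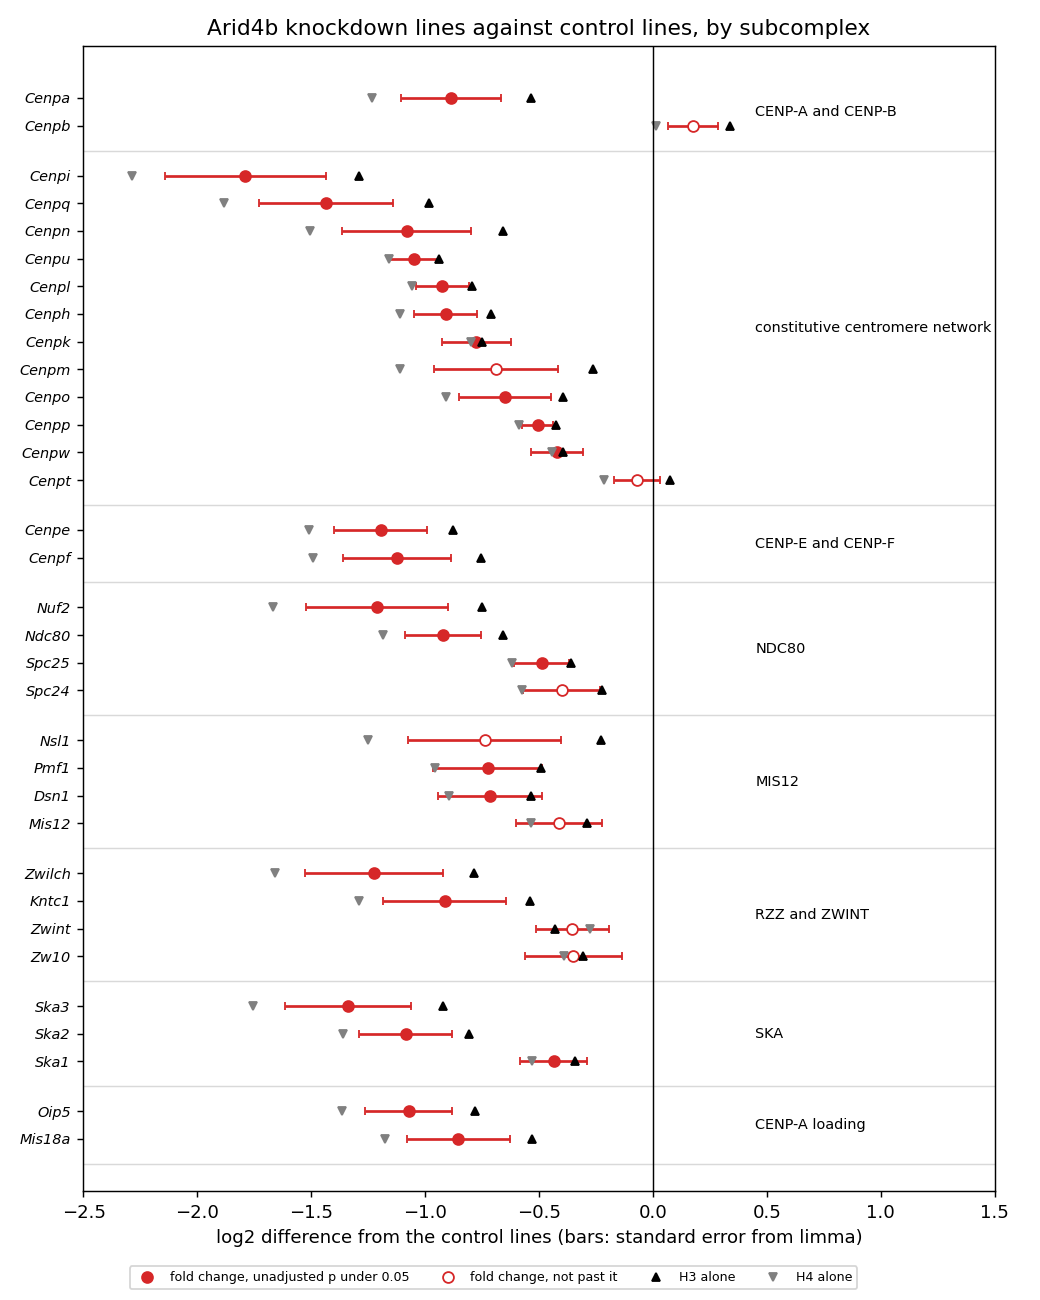
Log2 difference of the *Arid4b* knockdown lines from the control lines (horizontal axis) for 33 genes grouped by subcomplex (rows). Circles with bars are the limma fold change and its standard error, filled where the unadjusted p is under 0.05, and triangles are H3 and H4 alone relative to the control mean. *Cenpi* lies farthest to the left at -1.79, and *Cenpb* lies to the right of 0 at 0.17.

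The promoters of these genes were searched for the elements through which cell cycle factors are known to act. A RefSeq window of 250 bases before and 50 after the transcription start (GRCm38.p6) was given for 30 of the 34 genes, and *Spc24*, *Nsl1*, *Zwilch* and *Ska1* had no entry. *Cenpk* has several windows, and a gene was counted if any window held a match on either strand, overlaps allowed. The CHR element (TTTGAA), to which MuvB complexes bind, was found in 11 of 23 genes that were lower (47.8%). It was found in 1 of 6 measured genes that were not, *Zw10* (16.7%), and in 17.3% of the 15563 genes on the arrays with a window. The CCAAT box of NF-Y was found in 16 of the 23 (69.6%) and in 3 of the 6, against 41.7% of all measured genes. An E2F site (TTCCCGC, the variant TTGGCGC, the variant TTCGCGC or the variant TTGCCGC) was found in 8 of the 23 (34.8%) and in 3 of the 6, against 14.7%. These matches describe the sequences and do not show that a factor was bound.

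Windows from 120 bases before to 30 bases after the start are shown for 5 of the 11 lower genes with a CHR element, for *Cenpi* and *Nuf2*, which were lower without one, and for *Cenpb* and *Cenpt*, which were not lower and also held none. They lie at chr5:30666766-30666915 (plus strand) for *Cenpa*, chr1:189688057-189688206 (minus strand) for *Cenpf*, chr8:116921620-116921769 (plus strand) for *Cenpn*, chr5:123749606-123749755 (plus strand) for *Kntc1*, chr14:57826134-57826283 (minus strand) for *Ska3*, chrX:134307964-134308113 (plus strand) for *Cenpi*, chr1:169531435-169531584 (minus strand) for *Nuf2*, chr2:131180038-131180187 (minus strand) for *Cenpb* and chr8:105851979-105852128 (minus strand) for *Cenpt*. Capitals mark the CHR element, CCAAT box and E2F site in either orientation, so that TTTGAA read on the other strand appears as TTCAAA and CCAAT as ATTGG.
Cenpa: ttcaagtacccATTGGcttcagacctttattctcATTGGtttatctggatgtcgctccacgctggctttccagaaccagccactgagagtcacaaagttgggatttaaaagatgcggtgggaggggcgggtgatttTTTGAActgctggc
Cenpf: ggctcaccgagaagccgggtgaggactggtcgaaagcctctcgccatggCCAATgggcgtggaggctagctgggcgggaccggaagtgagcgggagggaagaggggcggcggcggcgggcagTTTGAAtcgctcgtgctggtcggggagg
Cenpn: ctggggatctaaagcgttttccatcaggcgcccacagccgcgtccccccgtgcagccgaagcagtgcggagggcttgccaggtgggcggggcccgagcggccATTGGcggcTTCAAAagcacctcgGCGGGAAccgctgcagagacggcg
Kntc1: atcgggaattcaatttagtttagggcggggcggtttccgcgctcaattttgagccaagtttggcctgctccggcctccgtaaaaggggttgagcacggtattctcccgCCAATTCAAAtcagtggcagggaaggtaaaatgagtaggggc
Ska3: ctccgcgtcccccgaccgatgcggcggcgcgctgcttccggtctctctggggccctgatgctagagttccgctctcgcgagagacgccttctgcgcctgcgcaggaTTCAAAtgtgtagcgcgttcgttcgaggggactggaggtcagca
Cenpi: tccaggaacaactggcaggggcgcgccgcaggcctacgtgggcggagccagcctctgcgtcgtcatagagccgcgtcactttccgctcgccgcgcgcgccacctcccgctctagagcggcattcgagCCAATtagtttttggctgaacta
Nuf2: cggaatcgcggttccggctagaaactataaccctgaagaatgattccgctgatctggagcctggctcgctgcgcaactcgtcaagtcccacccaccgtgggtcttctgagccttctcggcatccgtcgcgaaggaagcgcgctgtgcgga
Cenpb: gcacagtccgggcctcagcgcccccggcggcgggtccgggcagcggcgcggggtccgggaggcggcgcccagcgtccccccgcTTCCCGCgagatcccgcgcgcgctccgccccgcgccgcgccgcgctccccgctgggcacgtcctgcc
Cenpt: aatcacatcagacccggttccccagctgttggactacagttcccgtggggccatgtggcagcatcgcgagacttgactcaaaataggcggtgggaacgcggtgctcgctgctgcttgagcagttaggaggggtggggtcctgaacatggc
Counting the first transcribed base as 1 and the base before it as -1, the CHR element began at 17 in *Cenpa*, 3 in *Cenpf*, -9 in *Cenpn*, -8 in *Kntc1* and -14 in *Ska3*. *Cenpi* held a single CCAAT box after the start, *Cenpb* held an E2F site, and *Nuf2* and *Cenpt* held none of the elements.

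**Figure D2:**
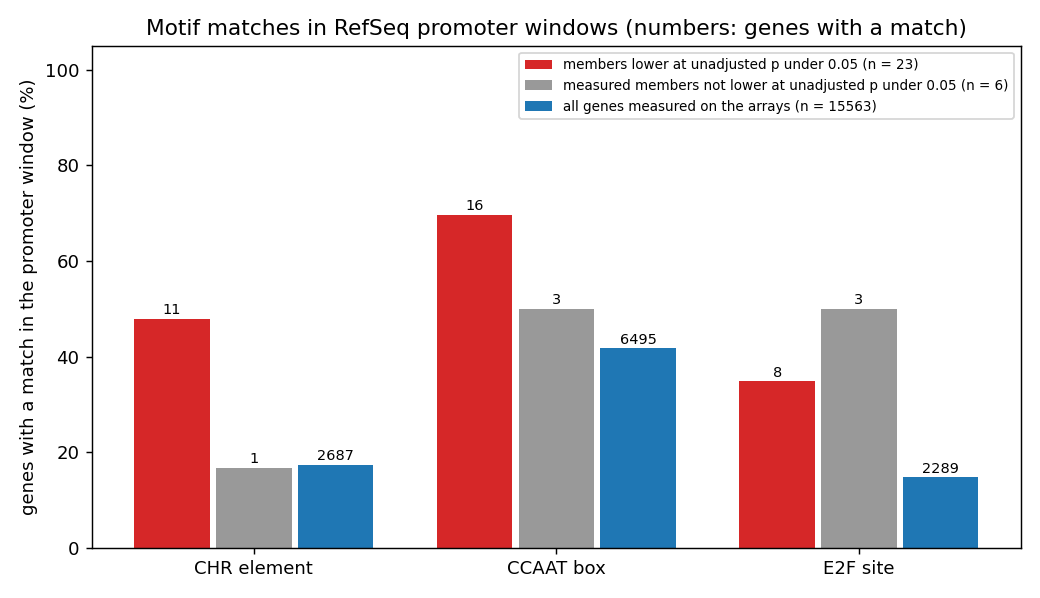
Percent of genes (vertical axis) with a match to each of the 3 elements in the RefSeq promoter window, for kinetochore genes that were lower, kinetochore genes that were not, and all genes on the arrays with a window. The number over each bar is the count of genes, and the CHR element is at 47.8%, 16.7% and 17.3%.

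The genes for the proteins that mark centromeric chromatin differed from each other. *Cenpa*, which encodes the centromeric histone, had log2 values of 10.42 (H3) and 9.73 (H4) against 11.05 (H5), 10.89 (scrambled) and 10.95 (untransduced). Both knockdown lines were low and the groups did not overlap, with a log2 fold change of -0.89 (SE 0.22, adjusted p = 0.317 from limma). *Cenpb*, whose product binds the CENP-B box of satellite DNA, lay at 8.21 (H3) and 7.88 (H4) against 7.89 (H5), 7.81 (scrambled) and 7.91 (untransduced). Here only H3 stood above the control lines, H4 was within their range, and the log2 fold change was 0.17 (SE 0.11), which did not pass. Without H4, that is for H3 alone, the difference of *Cenpb* was 0.34 and passed the unadjusted threshold in the higher direction, as did 24.6% of all genes in that comparison.

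Transcripts of the factors that load CENP-A onto centromeres after mitosis were low in both knockdown lines. *Mis18a*, a subunit of the MIS18 complex that licenses loading, lay at 7.28 (H3) and 6.63 (H4) against 7.86 (H5), 7.61 (scrambled) and 7.96 (untransduced). *Oip5*, which encodes MIS18-beta, its partner, was measured at 6.57 (H3) and 5.98 (H4) against 7.41 (H5), 7.22 (scrambled) and 7.41 (untransduced). In both genes H4 was the lowest line and H3 the next, below all control lines. The log2 fold changes were -0.85 (SE 0.23) for *Mis18a* and -1.07 (SE 0.19) for *Oip5*, both lower at the unadjusted threshold. The call of *Mis18a* was lost without H4 (-0.53), without H5 (-0.83) and without the untransduced cells (-0.78).

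The constitutive centromere network held the largest difference as well as a gene with no settled direction. Of its 12 measured genes 10 were lower, with a median log2 fold change of -0.84. In the group of CENP-H, CENP-I, CENP-K and CENP-M, which CENP-A deposition and NDC80 recruitment depend on in vertebrate cells, *Cenpi* had log2 values of 7.44 (H3) and 6.44 (H4) against 8.76 (H5), 8.41 (scrambled) and 9.01 (untransduced). Its log2 fold change of -1.79 (SE 0.35, adjusted p = 0.29 from limma) was the lowest of all 19938 genes, with H3 at 40.9% and H4 at 20.5% of the control level. *Cenph* lay at 6.88 (H3) and 6.48 (H4) against 7.66 (H5), 7.48 (scrambled) and 7.64 (untransduced). Its log2 fold change was -0.91 and the groups were apart by more than their own spread. *Cenpk* was at 5.61 (H3) and 5.56 (H4) against 6.38 (H5), 6.11 (scrambled) and 6.59 (untransduced), so that H3 and H4 were nearly alike, and its log2 fold change was -0.77. *Cenpm* had values of 9.10 (H3) and 8.25 (H4) against 9.40 (H5), 9.21 (scrambled) and 9.48 (untransduced). H4 was far below the control lines and H3 just below the lowest of them, and the log2 fold change of -0.69 (SE 0.27) did not pass. Leaving out H4 ended the call of *Cenpk* (-0.75), and leaving out H3 brought *Cenpm* past the threshold (-1.11).

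CENP-N reads the CENP-A nucleosome directly and pairs with CENP-L. *Cenpn* lay at 9.26 (H3) and 8.41 (H4) against 10.01 (H5), 9.70 (scrambled) and 10.04 (untransduced), a log2 fold change of -1.08 (SE 0.28). *Cenpl* was measured at 6.72 (H3) and 6.46 (H4) against 7.54 (H5), 7.38 (scrambled) and 7.63 (untransduced), a log2 fold change of -0.93 (SE 0.12). Neither gene overlapped between the groups, and H4 was below H3 by more in *Cenpn* than in *Cenpl*. The call of *Cenpn* was lost without H5 (-1.03) and without the untransduced cells (-1.02).

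The group of CENP-O, CENP-P, CENP-Q and CENP-U acts in chromosome alignment, and CENP-U is a docking site for the kinase PLK1. *Cenpq* had log2 values of 6.88 (H3) and 5.98 (H4) against 7.92 (H5), 7.67 (scrambled) and 8.01 (untransduced), and its log2 fold change of -1.43 (SE 0.29) left 50.6% of the control level in H3 and 27.1% in H4. *Cenpu* lay at 6.09 (H3) and 5.86 (H4) against 7.04 (H5), 6.88 (scrambled) and 7.15 (untransduced). With a log2 fold change of -1.05 (SE 0.11) it had the smallest adjusted p of the 33 genes, 0.194 from limma. For *Cenpo* the values were 7.74 (H3) and 7.22 (H4) against 8.14 (H5), 7.92 (scrambled) and 8.33 (untransduced), a log2 fold change of -0.65, and for *Cenpp* they were 6.10 (H3) and 5.94 (H4) against 6.52 (H5), 6.48 (scrambled) and 6.57 (untransduced), a log2 fold change of -0.51. All 4 genes were lower without overlap of the groups, with the largest fold change in *Cenpq* and the smallest in *Cenpp*. *Cenpo* lost its call without H4 (-0.39), without H5 (-0.65) and without the untransduced cells (-0.55).

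CENP-T and CENP-W form a histone-fold dimer that holds NDC80 independently of the MIS12 complex. *Cenpt* lay at 9.0 (H3) and 8.70 (H4) against 8.92 (H5), 8.97 (scrambled) and 8.87 (untransduced), and its log2 fold change of -0.07 (SE 0.10) did not pass. H3 was above all control lines and H4 below them. After a second quantile normalization the difference was 0.0095, without H4 it was 0.076 and without H3 it was -0.22, where it passed the unadjusted threshold, so that no direction is given. *Cenpw* was at 5.68 (H3) and 5.63 (H4) against 6.15 (H5), 5.87 (scrambled) and 6.2 (untransduced), a log2 fold change of -0.42 (SE 0.11) in a gene whose mean control level was below the array medians. It was lower in both knockdown lines, and the call was lost on leaving out H3 (-0.44), H4 (-0.40) or H5 (-0.38).

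Neighbours of these proteins that are not among the 33 genes were placed beside them after their values had been seen. *Cenps* and *Cenpx*, which encode the histone-fold partners of CENP-T and CENP-W, had log2 fold changes of -0.20 and 0.09, and neither passed. With *Cenpt* and *Cenpw* their median was -0.14, against -0.84 for *Cenph*, *Cenpi*, *Cenpk* and *Cenpm* and -1.0 for *Cenpl* and *Cenpn*. *Itgb3bp*, which encodes CENP-R, had a log2 fold change of -0.16, which did not pass, and with it the median of the CENP-O group was -0.65. *Cenpc1*, which encodes CENP-C, the scaffold that binds both CENP-A nucleosomes and the MIS12 complex, lay at 7.31 (H3) and 7.38 (H4) against 7.86 (H5), 7.71 (scrambled) and 7.81 (untransduced). It was lower, with a log2 fold change of -0.45 (SE 0.06) and H3 below H4. The differences between these groups of genes were not tested.

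Both CENP transcripts of the outer kinetochore were low in the knockdown lines. *Cenpe*, which encodes the kinesin that moves chromosomes to the spindle equator, lay at 8.88 (H3) and 8.25 (H4) against 9.73 (H5), 9.66 (scrambled) and 9.88 (untransduced). *Cenpf*, which encodes a coiled-coil protein of the corona that binds microtubules, was at 8.38 (H3) and 7.64 (H4) against 9.17 (H5), 9.0 (scrambled) and 9.25 (untransduced). H4 was the lowest line and H3 lay between H4 and the control lines in both. The log2 fold changes were -1.20 (SE 0.21) and -1.12 (SE 0.24), and both genes were lower under all 12 alternative settings.

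The NDC80 complex is made of a pair of proteins that contact the microtubule, NDC80 and NUF2, and a pair that anchors them, SPC24 and SPC25, and the difference was larger in the first pair. *Nuf2* had log2 values of 8.77 (H3) and 7.85 (H4) against 9.56 (H5), 9.27 (scrambled) and 9.73 (untransduced). *Ndc80* lay at 7.78 (H3) and 7.25 (H4) against 8.50 (H5), 8.36 (scrambled) and 8.45 (untransduced). In these genes both knockdown lines were low without overlap, and the log2 fold changes were -1.21 (SE 0.31) and -0.92 (SE 0.17). *Spc25* was at 7.70 (H3) and 7.44 (H4) against 8.06 (H5), 7.93 (scrambled) and 8.19 (untransduced), a log2 fold change of -0.49 (SE 0.12). *Spc24* was measured at 7.16 (H3) and 6.81 (H4) against 7.57 (H5), 7.16 (scrambled) and 7.43 (untransduced). H3 and the scrambled control had the same deposited value for *Spc24*, and its log2 fold change of -0.40 (SE 0.17) did not pass. The difference between the pairs was not tested. Leaving out H4 ended the calls of *Nuf2* (-0.75) and *Spc25* (-0.36), leaving out the untransduced cells ended that of *Nuf2* (-1.11), and leaving out the scrambled control made *Spc24* lower (-0.51).

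In the MIS12 complex the control lines were themselves spread, and 2 of 4 genes were lower. *Dsn1*, which encodes the subunit through which Aurora B controls binding of the complex to CENP-C, lay at 7.80 (H3) and 7.43 (H4) against 8.50 (H5), 7.95 (scrambled) and 8.54 (untransduced), a log2 fold change of -0.72 (SE 0.23). *Pmf1* was at 8.01 (H3) and 7.54 (H4) against 8.46 (H5), 8.21 (scrambled) and 8.83 (untransduced), a log2 fold change of -0.73 (SE 0.24). Both were lower, and both calls were lost on leaving out H3 (-0.90 for *Dsn1* and -0.96 for *Pmf1*), H4 (-0.54 and -0.49), H5 (-0.63 and -0.74) or the untransduced cells (-0.61 and -0.56). *Nsl1* had values of 8.23 (H3) and 7.21 (H4) against 8.65 (H5), 8.23 (scrambled) and 8.50 (untransduced). H4 alone was far below the control lines, while H3 had the same deposited value as the scrambled control, and the log2 fold change of -0.74 (SE 0.34) did not pass. *Mis12* lay at 8.33 (H3) and 8.08 (H4) against 8.57 (H5), 8.36 (scrambled) and 8.92 (untransduced), and its log2 fold change of -0.41 (SE 0.19) did not pass although both knockdown lines were below all control lines. *Nsl1* was lower without H3 (-1.25), and *Mis12* was lower without the scrambled control (-0.54). In all 4 genes the scrambled control was the lowest control line.

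Of the RZZ complex, *Zwilch* and *Kntc1*, which encodes ROD, were lower, and *Zw10* was not. *Zwilch* had log2 values of 8.62 (H3) and 7.74 (H4) against 9.50 (H5), 9.13 (scrambled) and 9.58 (untransduced), a log2 fold change of -1.22 (SE 0.30). *Kntc1* lay at 8.18 (H3) and 7.43 (H4) against 8.95 (H5), 8.49 (scrambled) and 8.72 (untransduced), a log2 fold change of -0.91 (SE 0.27). H4 stood below H3, and H3 below every control line, in these genes. *Zw10*, which also acts in membrane traffic between the endoplasmic reticulum and the Golgi, was at 7.98 (H3) and 7.90 (H4) against 8.17 (H5), 8.02 (scrambled) and 8.68 (untransduced). H3 was within 0.04 of the scrambled control, and the log2 fold change of -0.35 (SE 0.21) passed under none of the settings. *Zwint*, whose product binds KNL1 and is needed to bring RZZ to kinetochores, lay at 10.18 (H3) and 10.33 (H4) against 10.34 (H5), 10.81 (scrambled) and 10.67 (untransduced). It was the only one of the 33 genes with H3 below H4, and its log2 fold change of -0.35 (SE 0.16) did not pass. *Kntc1* lost its call without H4 (-0.54), without H5 (-0.80) and without the untransduced cells (-0.92), and *Zwint* was lower without H5 (-0.49).

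All 3 genes of the SKA complex were lower. *Ska3* had log2 values of 8.48 (H3) and 7.65 (H4) against 9.41 (H5), 9.21 (scrambled) and 9.58 (untransduced), and its log2 fold change of -1.34 (SE 0.28) left 52.8% of the control level in H3 and 29.6% in H4. *Ska2* lay at 9.02 (H3) and 8.47 (H4) against 9.85 (H5), 9.64 (scrambled) and 10.00 (untransduced), a log2 fold change of -1.09 (SE 0.20). *Ska1*, which encodes the subunit that binds microtubules, was at 5.73 (H3) and 5.54 (H4) against 6.13 (H5), 5.83 (scrambled) and 6.25 (untransduced). Its log2 fold change was -0.44 (SE 0.15), in a gene whose mean control level was below the array medians. The groups did not overlap in any of the 3 genes. The call of *Ska1* was lost on leaving out H3 (-0.53), H4 (-0.34), H5 (-0.40) or the untransduced cells (-0.35).

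**Figure D3:**
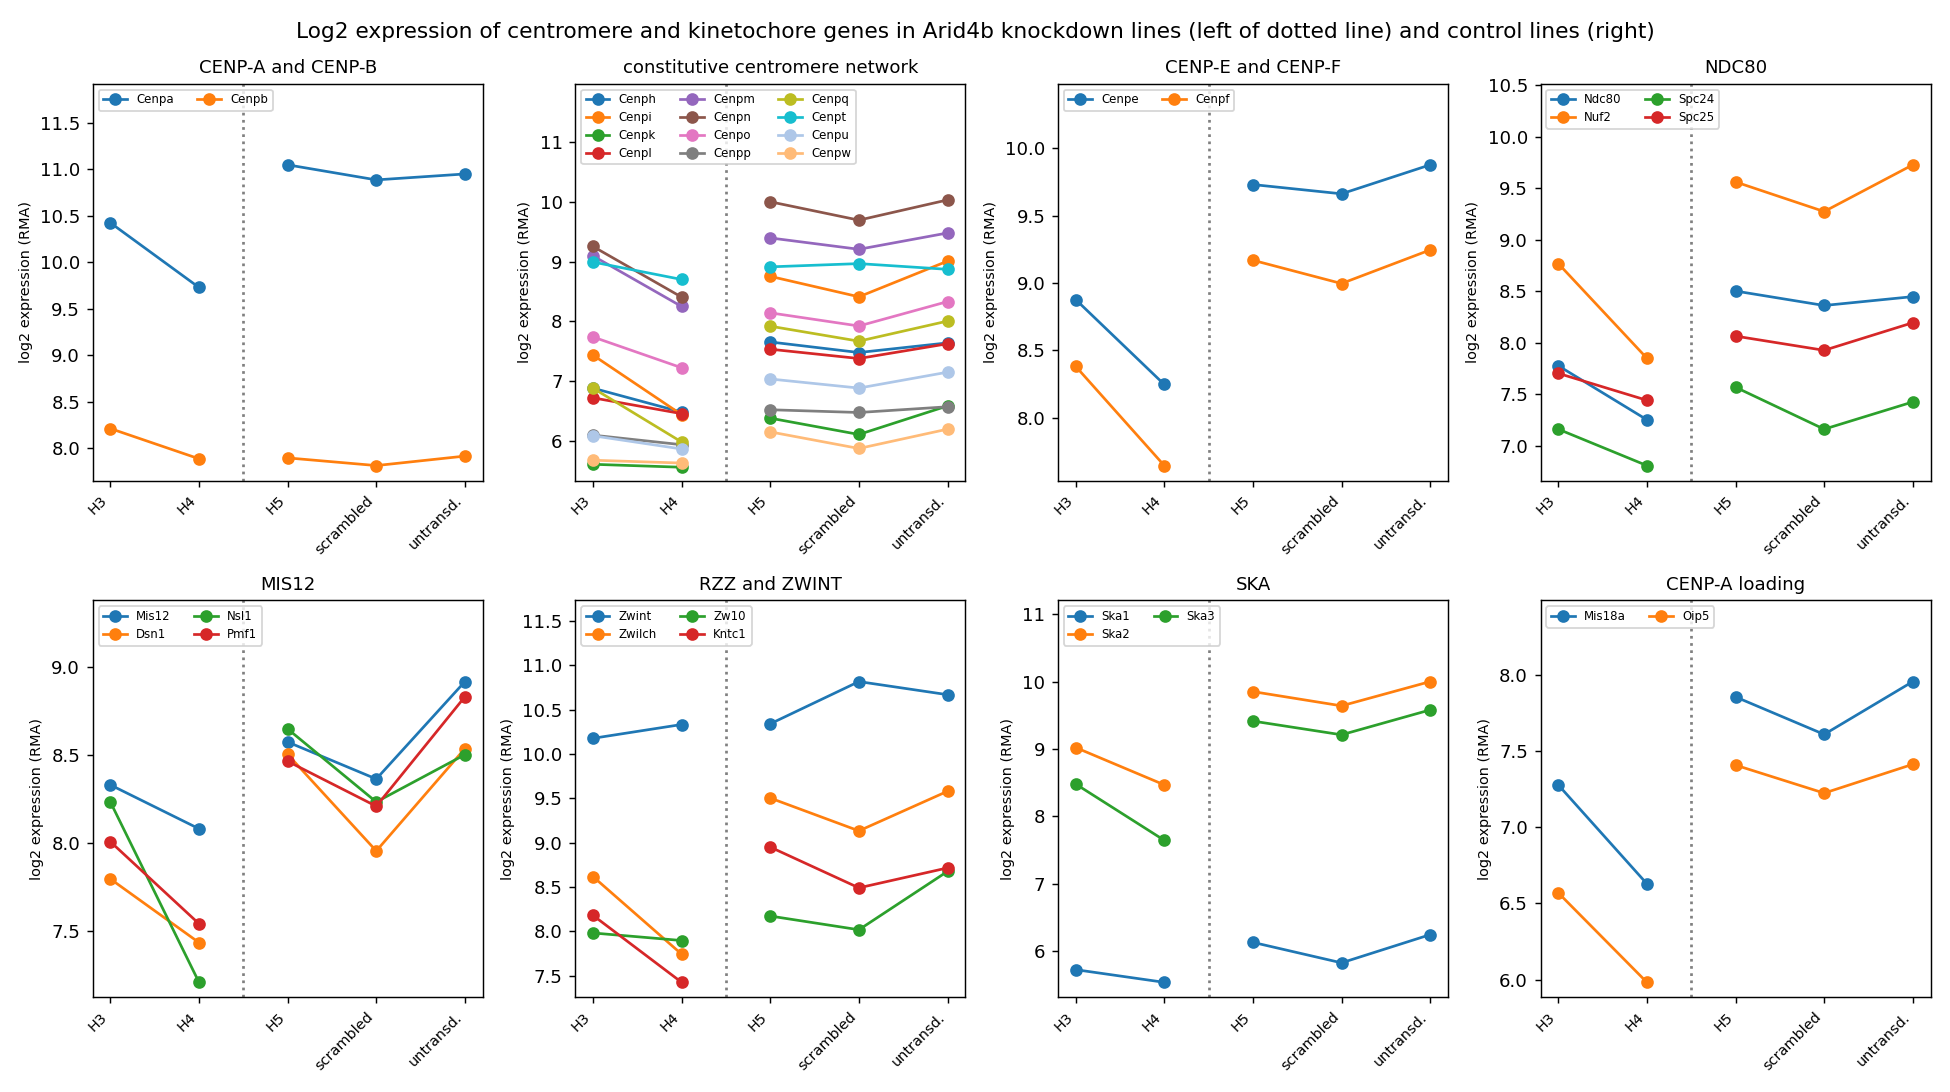
Log2 expression (vertical axes) of the 33 genes in each of the 5 lines, with 1 panel per subcomplex and 1 point per array. Knockdown lines H3 and H4 are left of the dotted line and the control lines right of it, line segments only join the points of a gene within a group, and *Cenpi* lies at 7.44 in H3 and 6.44 in H4.

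The 5 lines fell into a nearly constant order across these genes. H4 was below H3 in 32 of the 33 genes, against 58.9% of all genes, and by more than the range of the 3 control lines in 22 of them, against 38.1% of all genes. The median difference from the control mean was -0.54 in H3 and -1.11 in H4. *Arid4b* mRNA was the lower in H3, while ARID4B densitometry was 0.19 in H3 and 0.15 in H4, a small gap that was not tested here. With 1 line per hairpin the difference between H3 and H4 was not tested, nor was the part of the narrower spread of the H3 array in it. The scrambled control was the lowest of the control lines in 31 of the 33 genes, *Cenpt* and *Zwint* being the others, against 34.2% of all genes. Its median difference from the control mean was -0.20, against 0.03 in H5 and 0.12 in untransduced cells. The complete order from H4 through H3, the scrambled control and H5 to untransduced cells was found in 24 of the 33 genes and in 3.39% of all genes. This is the order of the line medians of these same genes, so that its share among them only describes them and tests nothing. Equal values on 2 or more arrays, which leave an order undecided, occurred in 2 of the 33 genes, *Spc24* and *Nsl1*, against 38.4% of all genes.

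The size of the differences depended on which of the 2 control lines with the same vector and selection, the scrambled control or H5, was used. Against the scrambled control the median over the 33 genes was -0.44 for H3 and -0.98 for H4, and against H5 it was -0.71 for H3 and -1.17 for H4. Both knockdown lines were below H5 in 31 of the 33 genes, *Cenpb* and *Cenpt* being the others, against 24.9% of all genes. Both knockdown lines were below the scrambled control in 29 of the 33 genes, against 21.6% of all genes, and the others were *Cenpb*, *Cenpt*, *Spc24* and *Nsl1*. By subcomplex the median for H3 against the scrambled control was -0.70 for *Cenpe* and *Cenpf*, -0.62 for SKA, -0.49 for CENP-A loading, -0.47 for the constitutive centromere network, -0.41 for RZZ and *Zwint*, -0.36 for NDC80, -0.10 for MIS12 and -0.03 for *Cenpa* and *Cenpb*. For H4 the medians were -1.38, -1.17, -1.11, -0.94, -0.77, -0.80, -0.59 and -0.54 in the same sequence of subcomplexes. With 1 array on each side no test was possible.

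**Figure D4:**
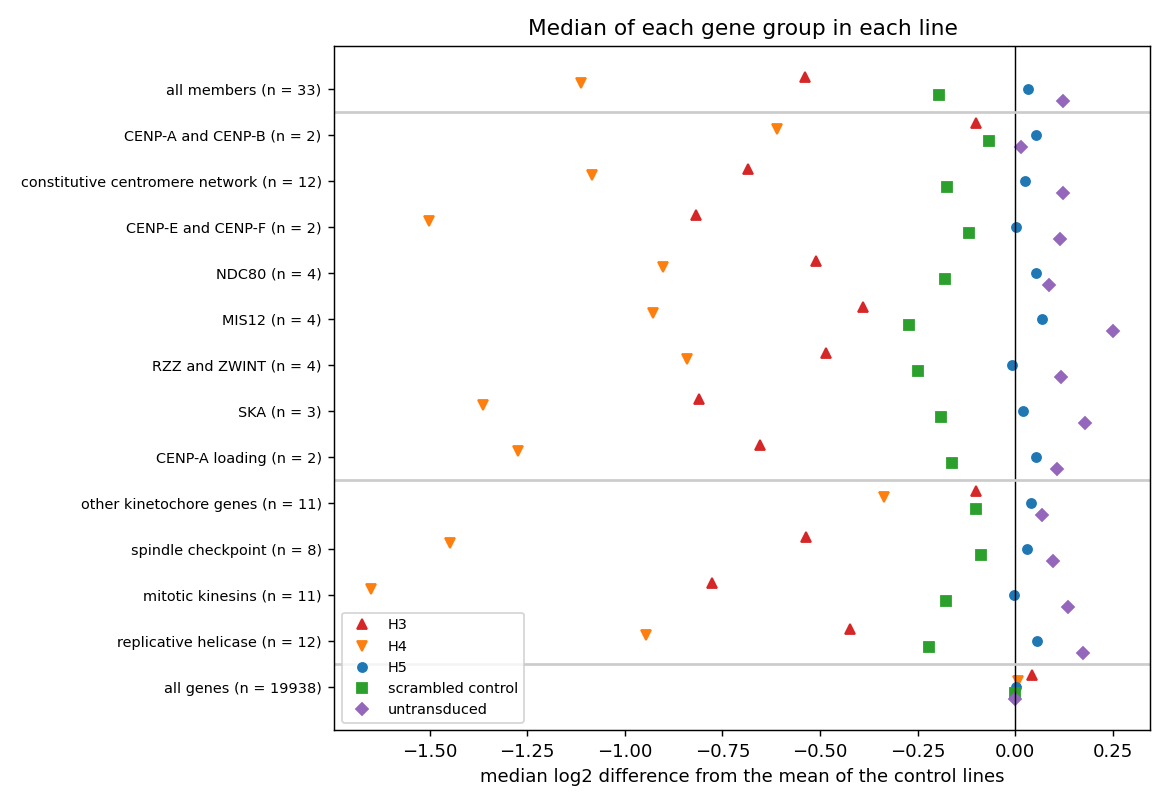
Median log2 difference of each gene group (rows, with the number of measured genes) from the mean of the control lines (horizontal axis), with 1 symbol per line. Over the 33 genes, the row named all members, H4 lies at -1.11 and H3 at -0.54, and the scrambled control at -0.20 is the lowest control line.

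Other genes of the kinetochore and of mitosis, taken from 4 lists, were set beside the 33 genes. Of 11 further kinetochore genes 4 were lower and none was higher, with a median of -0.33, among them *Spag5*, which encodes the spindle and kinetochore protein astrin, at -1.35 and *Knl1*, the scaffold of checkpoint signalling, at -1.05. *Nde1*, a dynein regulator, was at -0.60, while *Spdl1*, *Bod1*, *Ndel1* and *Cenpv* did not pass. Of 8 spindle checkpoint genes 7 were lower, with a median of -1.01 and *Trip13* the lowest at -1.42. Of 11 mitotic kinesins 10 were lower, with a median of -1.17. *Kif2c*, the microtubule depolymerase of the centromere, was at 8.48 (H3) and 8.44 (H4) against a control mean of 10.23 ± 0.16 (SD, n = 3), so that H3 and H4 differed by 0.04. Of 12 genes of the replicative helicase, which acts in S phase, 11 were lower, with a median of -0.71 and *Gins1* the lowest at -0.93. With all 5 lines no gene of these lists was higher, and the differences between lists were not tested. From these same arrays the study had already reported *Kif2c*, *Kif4* (as *Kif4a*), *Bub1* and *Bub1b* of these lists as lower. Leaving out H3 changed the 4 medians to -0.34, -1.45, -1.65 and -0.95. Without H4 they were -0.10, -0.54, -0.78 and -0.42. In the same sequence the counts of lower genes were 3, 6, 6 and 1 when H5 was dropped, against 3.89% of all genes. They were 4, 6, 8 and 12 when the scrambled control was, against 8.0%, and 3, 4, 5 and 4 when the untransduced cells were, against 5.07%.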

How the data were processed

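Total RNA of 5 lines was arrayed once each. The deposited log2 values, 1 per probe set, came from RMA as run by the authors in Partek software. For neither tool was a version given in the sources used here. RMA compresses differences of dim probe sets, and with 1 array per line the number of arrays limits the precision. Lines were assigned to the knockdown and control cohorts from the ARID4B level in the labels. Of 35556 probe sets, 21789 had 1 gene symbol in the platform annotation, 1621 had several and 12146 were unnamed here. The gene ID of 21698 was found in a RefSeq table of GRCm38.p6, used to update names. For each gene the probe set of highest mean was taken, which gave 19938 genes. Each of the 33 genes had 1 probe set.

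The test of knockdown against control lines was limma's (version 3.58.1 under R 4.3.3, with 1.58 prior and 3 residual degrees of freedom) over all genes, followed by Benjamini-Hochberg adjustment. Genes were counted where the unadjusted p was under 0.05, as in the study's methods. The same fit was also run on simulated data with known differences, and no result here rests on that run. The members, gene lists, motifs and settings were chosen with earlier results of these data known. All members were named. The rule for the comparison lists was up to 3 genes by size of difference, and the remaining genes of the other kinetochore list were named after their values had been seen. The alternatives were array medians subtracted, a second quantile normalization, probe sets averaged, dim genes (the lowest 1 in 3 by mean) left out, an unmoderated equal-variance test, limma with trend and robust options, puromycin selection as a covariate, and each line left out in turn. Promoter sequences are from RefSeq (GRCm38.p6), and the arrays carry no coordinates here. Figures were drawn with matplotlib 3.10.9.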

Additional observations from a re-analysis of the deposited data

How the results depend on the processing

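The lower direction of the median over the 33 genes and of each subcomplex held under all 12 alternatives. In the pair of *Cenpa* and *Cenpb* this rested on *Cenpa*, as *Cenpb* lay above 0 under each (0.01 to 0.34). Not all of the alternatives could change the direction of the 33 genes. Averaging probe sets, leaving out dim genes, the unmoderated test and the trend and robust options leave the fold changes of these genes as they were. The median was -0.82 to -0.90 under both other scalings and -0.78 with puromycin selection as a covariate, which gives the same differences as leaving out the untransduced cells. The line left out mattered more. The median ran from -1.11 without H3 to -0.54 without H4, and the count of lower genes from 15 without H4 to 27 without the scrambled control. By subcomplex the medians with 1 line left out ran from -0.61 to -0.10 for *Cenpa* and *Cenpb*, -1.08 to -0.68 for the constitutive centromere network, -1.5 to -0.82 for *Cenpe* and *Cenpf*, -0.90 to -0.51 for NDC80, -0.93 to -0.39 for MIS12, -0.84 to -0.48 for RZZ and *Zwint*, -1.36 to -0.81 for SKA and -1.27 to -0.65 for CENP-A loading. The median of *Cenpa* and *Cenpb* was -0.29 after a second quantile normalization. *Cenpt* reversed its sign, at 0.0095 after that normalization, and with 1 line left out it ran from -0.2157 without H3 to 0.0763 without H4. The cause was not tested.

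The unmoderated equal-variance test left 17 of the 25 calls, and the puromycin covariate also left 17, against 4.19% and 5.07% of all genes lower. The genes that lost their call under both were *Cenpn*, *Cenpo*, *Nuf2*, *Dsn1*, *Pmf1*, *Kntc1*, *Ska1* and *Mis18a*. With array medians subtracted *Cenpm*, *Spc24*, *Mis12* and *Nsl1* were also lower. No gene of the 33 passed an adjusted p under 0.05 from limma under any setting, and 1 was higher at the unadjusted threshold, *Cenpb* without H4. For the lists of other kinetochore, checkpoint, kinesin and helicase genes the unmoderated test left 3, 5, 5 and 2 lower genes and the puromycin covariate 3, 4, 5 and 4, and 7 other kinetochore genes were lower with array medians subtracted. Over all genes 2383 passed the unadjusted threshold, against 1422 with the unmoderated test, 1519 with the puromycin covariate and without the untransduced cells, 1184 without H5 and 6887 without H4. Of the last, 4901 were higher and 1986 lower, against 866 higher and 1517 lower with all lines. At an adjusted p under 0.05, where limma with all lines passed none, 3 genes passed with the unmoderated test, 4 with dim genes left out and 1266 without H4. No paired analysis was possible because the labels give no replicate numbers that pair the knockdown lines with control lines.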
